A study of Mus musculus with 3 samples.

Results

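Nuclear chromosomes of the mouse carry copies of pieces of the mitochondrial chromosome, and 5 windows of 10 kb that hold such copies were examined here in 2-cell embryos. The windows start at chr1:24610001, chr1:24620001, chr2:22440001, chr4:79640001 and chr10:95540001 of the mm9 mouse genome build. They were chosen by their measured alignment counts, which repeated those of the mitochondrial chromosome, so the counts are described here without a test. Cut into bins of 200 bases, they gave 250 bins of 13628742 bins of nuclear sequence.

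RNA was measured in 3 litters of 2-cell embryos collected at embryonic day 1.5, each litter being 1 pooled library of 1 group. The mothers were LSD1 FL/FL and ZP3::Cre negative, of mixed strain with C57/Bl6J. Their floxed LSD1 gene was thus not exposed to the Cre that the Zp3 promoter drives in growing oocytes. The labels name wild type CB6 males as fathers in one field and C57/Bl6J mice in another. Total RNA was amplified by SPIA, an isothermal linear amplification, and fragments were sequenced and aligned in pieces of 72 bases. No genotype or treatment was compared. The coverage carries no gene names, so markers of the 2-cell stage were not checked. The nuclear total was 34014013, 32431630 and 40474940 alignments for litters 1, 2 and 3, and the mitochondrial chromosome held 30.4%, 28.6% and 26.3% of all alignments.

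Mitochondria keep a small circular chromosome that encodes core subunits of the respiratory chain, the ribosomal RNAs and the transfer RNAs that translate them. Pieces of this chromosome have entered the nuclear genome during evolution, and such nuclear mitochondrial segments then gather base changes of their own. Eggs and early embryos are rich in mitochondrial RNA, and an alignment to a young nuclear copy can be hard to tell from one to the mitochondrial chromosome.

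The finding rests on how many of the 72 bases differ between a nuclear copy and the mitochondrial chromosome, so alignments from 1 gene are shown first. The gene is mt-Co1, which encodes the catalytic subunit of cytochrome c oxidase, and the nuclear copy is the pseudogene Gm13340 on chromosome 2. For each number of differences, the start with the most mitochondrial alignments summed over litters was taken. Each line is the coding strand, 5′ to 3′, from GENCODE M21 transcripts, and capitals mark the bases that differ. Along mt-Co1 these stretches cover mitochondrial bases 5686 to 5757 (0 differences), 6427 to 6498 (1), 6283 to 6354 (2), 6350 to 6421 (3) and 6163 to 6234 (4).
mt-Co1 and Gm13340, 0 differences: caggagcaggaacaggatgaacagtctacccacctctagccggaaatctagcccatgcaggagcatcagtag
mt-Co1, 1 difference: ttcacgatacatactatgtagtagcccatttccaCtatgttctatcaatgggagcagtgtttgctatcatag
Gm13340, 1 difference: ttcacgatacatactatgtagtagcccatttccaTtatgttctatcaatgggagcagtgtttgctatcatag
mt-Co1, 2 differences: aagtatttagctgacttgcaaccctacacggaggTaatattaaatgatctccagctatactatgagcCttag
Gm13340, 2 differences: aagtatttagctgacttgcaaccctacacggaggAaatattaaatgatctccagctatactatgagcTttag
mt-Co1, 3 differences: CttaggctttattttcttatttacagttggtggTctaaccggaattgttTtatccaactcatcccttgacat
Gm13340, 3 differences: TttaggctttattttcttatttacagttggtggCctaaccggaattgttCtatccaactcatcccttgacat
mt-Co1, 4 differences: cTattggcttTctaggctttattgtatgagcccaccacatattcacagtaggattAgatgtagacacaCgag
Gm13340, 4 differences: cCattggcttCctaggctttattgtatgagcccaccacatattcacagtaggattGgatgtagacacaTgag

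At the pair with 0 differences, 3117, 1704 and 2052 alignments lay on the chromosome 2 copy in litters 1, 2 and 3, and exactly as many on the mitochondrial chromosome. With 1 difference the copy held 4472, 2314 and 2927 alignments against 4578, 2371 and 3005. With 2 differences it held 2794, 1650 and 1904 against 3337, 1943 and 2229. The copy was thus level with the mitochondrial chromosome where the bases were the same, and below it in every litter where they differed. With 3 differences the copy held 3724, 2035 and 2447 alignments against 4357, 2399 and 2826. With 4 differences it held 4, 2 and 2 against 1454, 849 and 1007. As shares, the pair with 2 differences (83.7%, 84.9% and 85.4%) and the pair with 3 (85.5%, 84.8% and 86.6%) overlapped between litters. These 2 pairs are not typical of their classes. Over the Gm13340 starts with at least 30 mitochondrial alignments summed over litters, the share was 91.9% ± 0.122 with 2 differences. With 3 differences it was 81.0% ± 0.263 (SD, n = 3). The step from 3 to 4 differences took the copy from most of the mitochondrial count to almost none of it.

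Pooled over all annotated copies on chromosomes 2 and 4, the share fell with each added difference, at starts with at least 30 mitochondrial alignments summed over litters. Without a difference, 467 of 467 start positions had equal counts in every litter. With 1 difference, 569 positions held 97.3%, 97.4% and 97.3% of the mitochondrial alignments in litters 1, 2 and 3 (97.3% ± 0.0663, SD, n = 3), and none had equal counts in all litters. With 2 differences, 937 positions held 92.7% ± 0.0798 (SD, n = 3), and 2 of them were equal. With 3 differences, 805 positions held 81.3% ± 0.0605 (SD, n = 3). The classes from 0 to 3 differences did not overlap between litters.

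With 4 differences, 549 positions held 0.264% ± 0.00382 (SD, n = 3) of the mitochondrial alignments, and 160 of them held none on the nuclear copy in any litter. With 5 or more, 1510 of 1523 positions held none. Those 1523 positions held 4, 4 and 6 nuclear alignments in the litters against 886874, 829470 and 714359 on the mitochondrial chromosome. The coverage carries no read names, so 1 read aligned in both places and different reads aligned to each cannot be told apart. How many differences or repeated placements the aligner allowed was not given in the sources used here. Their part in this ladder was not tested.

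**Figure D1:**
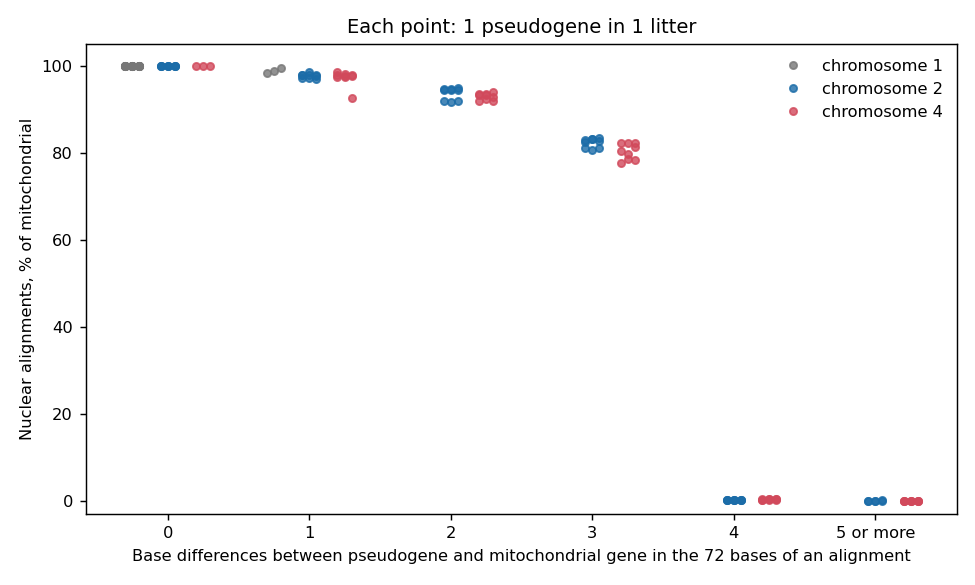
Nuclear alignments as a percentage of mitochondrial alignments (vertical axis) by the number of base differences in the 72 bases (horizontal axis), with 1 point for each pseudogene in each litter and chromosomes set side by side. All points with 0 differences lie at 100%, the pooled chromosome 2 and 4 values with 3 differences at 81.3%, and those with 4 differences at 0.264%.

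The bins were few and full. Of the 250, 49 held at least 500 alignments in every litter, 51 held at least 1 in every litter, 11 held some in part of the litters (26 alignments at most) and 188 held none. Together they held 4318944, 3362908 and 3205427 alignments, which was 12.7%, 10.4% and 7.92% of all nuclear alignments (10.3% ± 2.39, SD, n = 3). In size this equalled 29.1%, 25.9% and 22.2% of the mitochondrial alignments. Litter 1 was highest and litter 3 lowest on both scales.

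Among nuclear bins with at least 500 alignments in every litter, 42 of 5732 (0.733%) held 10 or more start positions whose counts equalled the mitochondrial chromosome in every litter on 1 offset. Of the 49 such bins in the windows, 37 (75.5%) did so, as the choice of the windows fixes. The 5 other called bins lay at chr12:98299601-98300000, chr6:9839801-9840200 and chr13:85266601-85266800. They matched mitochondrial starts between 15538 and 16037 or between 12695 and 12894, outside the matched stretches described below, and they are not members here. The starts from 12695 to 12894 do lie in the part of mt-Nd5 that the chromosome 4 copy covers.

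The windows differed in level by more than 10-fold and in their spread between litters. The chromosome 2 window held 42187, 28710 and 23086 alignments per 1000000 nuclear alignments in litters 1, 2 and 3 (31328 ± 9816, SD, n = 3). The window at chr1:24620001 held 33565 ± 7714 and that at chr1:24610001 held 20423 ± 6487 on the same scale. Those 3 windows were highest in litter 1 and lowest in litter 3. The chromosome 4 window was the lowest of the 5, with 2304, 2378 and 1430 on that scale (2037 ± 527, SD, n = 3). The chromosome 10 window held 16758, 14925 and 16117 on it (15934 ± 930, SD, n = 3). In order of mean level, the windows ran from chr1:24620001 through chromosome 2, chr1:24610001 and chromosome 10 to chromosome 4. Each of the first 4 overlapped its neighbour in that order between litters, and chromosome 4 lay below the others in every litter.

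The chromosome 10 window also varied least, with a coefficient of variation of 5.84% against 23.0% to 31.8% in the other 4. Among the 49 filled bins the coefficient ranged from 2.37%, in the bin at chr10:95540401-95540600, to 83.7%, in the bin at chr1:24622401-24622600. That last bin held 18046, 3248 and 7524 alignments. The median coefficient over the 49 bins was 31.4%, 36 bins were highest in litter 1, and 41 were lowest in litter 3. These levels are relative to the nuclear alignments of the same library. A change in the bins and an opposite change in the other nuclear alignments thus cannot be told apart. Each library is a pool of embryos, so differences between embryos were not seen.

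A few bins held much of each window. The 3 fullest on chromosome 2, at chr2:22444001-22444200, chr2:22443801-22444000 and chr2:22444801-22445000, held 6134 ± 2011, 5004 ± 1915 and 3295 ± 1143 alignments per 1000000 nuclear alignments (SD, n = 3), all in the mt-Co1 copy. Those on chromosome 4, at chr4:79648601-79648800, chr4:79648801-79649000 and chr4:79648401-79648600, held 871 ± 223, 392 ± 117 and 389 ± 98.8. On chromosome 10 the only filled bins, at chr10:95540201-95540400, chr10:95540401-95540600 and chr10:95540001-95540200, held 8848 ± 656, 6316 ± 149.8 and 769.5 ± 215. The 3 fullest bins at chr1:24610001, those starting at 24618401, 24619201 and 24618601, held 5687 ± 1778, 3911 ± 1166 and 3562 ± 1206. At chr1:24620001 they started at 24622801, 24621201 and 24621001 and held 5624 ± 2048, 5366 ± 1776 and 4669 ± 880.2. The chromosome 10 bin at 95540201 was thus the fullest by mean of all 250.

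**Figure D2:**
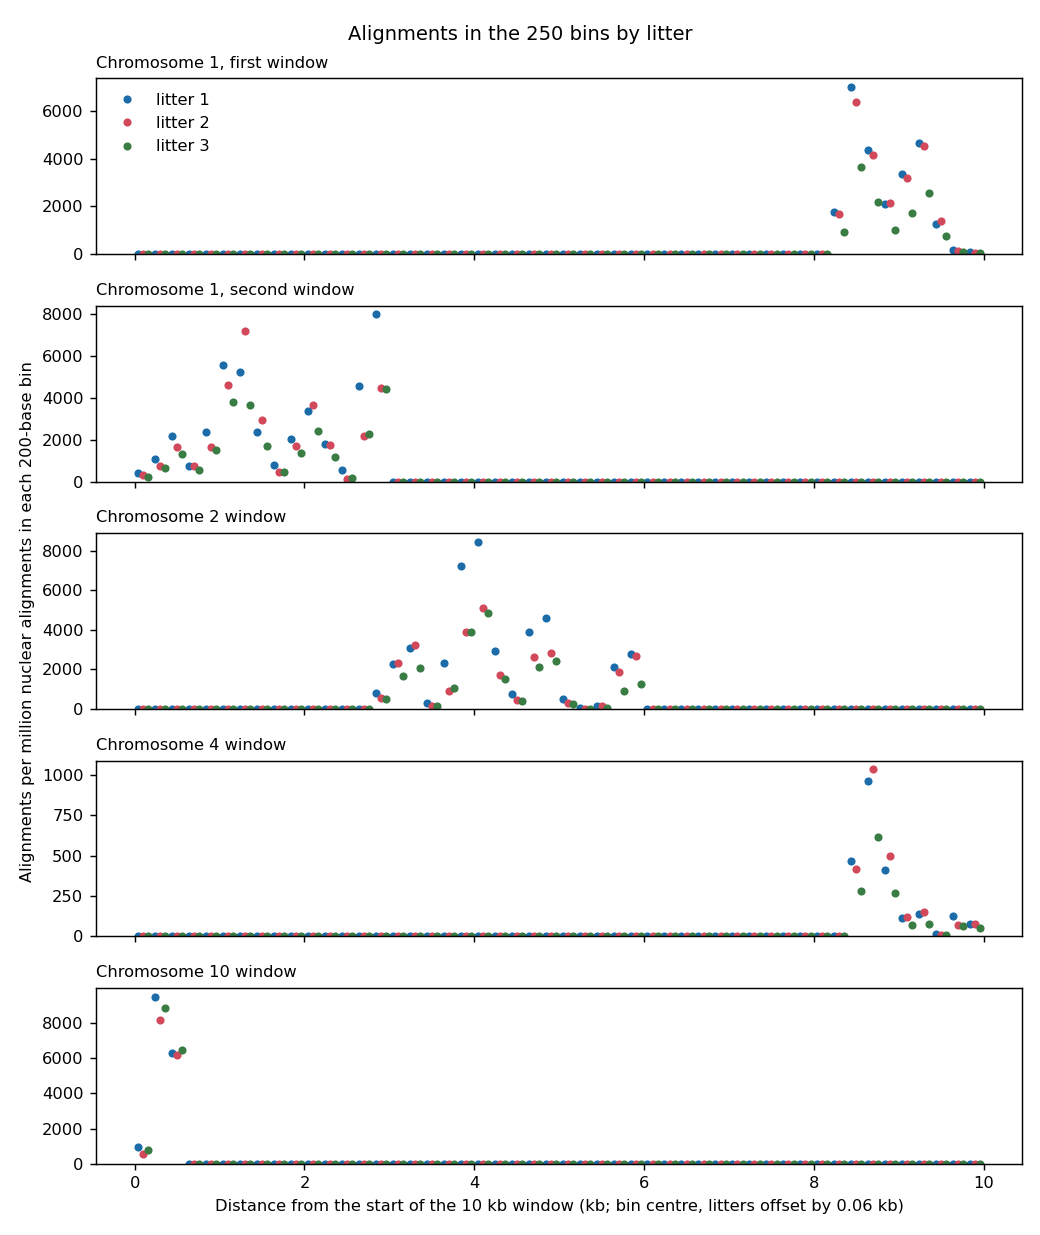
Alignments per 1000000 nuclear alignments in each 200-base bin (vertical axis, a scale for each panel) along the 5 windows (horizontal axis, kb from the window's start), with litters as coloured points. Bins with many alignments lie together in each window and most others lie at or near 0, and litter 3 is the lowest litter in 41 of the 49 filled bins.

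On chromosome 1, alignments covered 4664 bases across the border of both windows, chr1:24618368-24623031, in reverse orientation to the mitochondrial chromosome. A first stretch, chr1:24618374-24619595, matched mitochondrial bases 9821 to 11042, which hold all of mt-Nd4l and 63.6% of mt-Nd4, both subunits of respiratory complex I. All 1151 of its start positions with at least 30 alignments were equal in every litter (100%). A second stretch, chr1:24619588-24623023, matched bases 6394 to 9829, from the end of mt-Co1 through mt-Co2, mt-Atp8, mt-Atp6, mt-Co3 and mt-Nd3. There 3086 of 3091 positions (99.8%) were equal. The 5 others held more nuclear than mitochondrial alignments, by 3 at most at a position. The longest runs of unequal starts on this stretch held 3, 2 and 2 positions, all within mitochondrial starts 9394 to 9452, counting here also starts with fewer than 30 alignments. Over the matched stretches of all 4 chromosomes, 4868 of 6413 positions (75.9%) were equal and 6 (0.0936%) were higher on nuclear sequence.

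The chromosome 1 pseudogenes share 99.7% to 100% of their aligned bases with the mitochondrial genes. Gm28439 (mt-Nd4), Gm10222 (mt-Nd4l), Gm28437 (mt-Co3), Gm10925 (mt-Atp6) and Gm28661 (mt-Co2) have no difference, while Gm28438 (mt-Nd3) and Gm29216 (mt-Co1) have 1 each. All 3569 of their start positions without a difference had equal counts. At the 4 starts in mt-Co1 with 1 difference, the copy held 98.9% ± 0.485 (SD, n = 3) of the mitochondrial alignments.

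The 2 stretches on chromosome 1 were offset by 1 base, with 1 more base on the nuclear copy than on the mitochondrial chromosome. The length step lies in mt-Tr, the transfer RNA for arginine, where both stretches meet. The mitochondrial reference has a run of 8 adenines there (bases 14 to 21 of mt-Tr, mitochondrial bases 9821 to 9828), shown in capitals because the stretches meet there.
mt-Tr: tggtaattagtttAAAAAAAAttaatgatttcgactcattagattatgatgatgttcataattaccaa

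Across this step the order was turned round, and the nuclear copy held more. The 63 nuclear starts taken as spanning it were those between the 2 matched stretches (first bases 24619525 to 24619587). They held 2074, 1760 and 1533 alignments. The 62 mitochondrial starts taken in the same way (9759 to 9820) held 433, 385 and 400. The nuclear count was 4.79, 4.57 and 3.83 times the mitochondrial one (4.40 ± 0.502, SD, n = 3). The matched stretches were drawn by equal counts, so that counts between them differ is largely fixed by that choice. Of both counts together, 82.7% lay on the nuclear copy in litter 1 (95% Wilson interval 81.2% to 84.2%), 82.1% in litter 2 (80.4% to 83.6%) and 79.3% in litter 3 (77.4% to 81.1%). These intervals treat every alignment as a separate draw. Amplified fragments are not independent molecules, and 1 read aligned in both places cannot be told from different reads. The intervals therefore do not measure the uncertainty of these shares. Without the outer 10 starts on each side, the nuclear copy held 1176, 950 and 810 alignments against 48, 25 and 29. In the 500 starts on either side of the step, the ratio was 1.00 in every litter, which the same choice largely fixes.

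**Figure D3:**
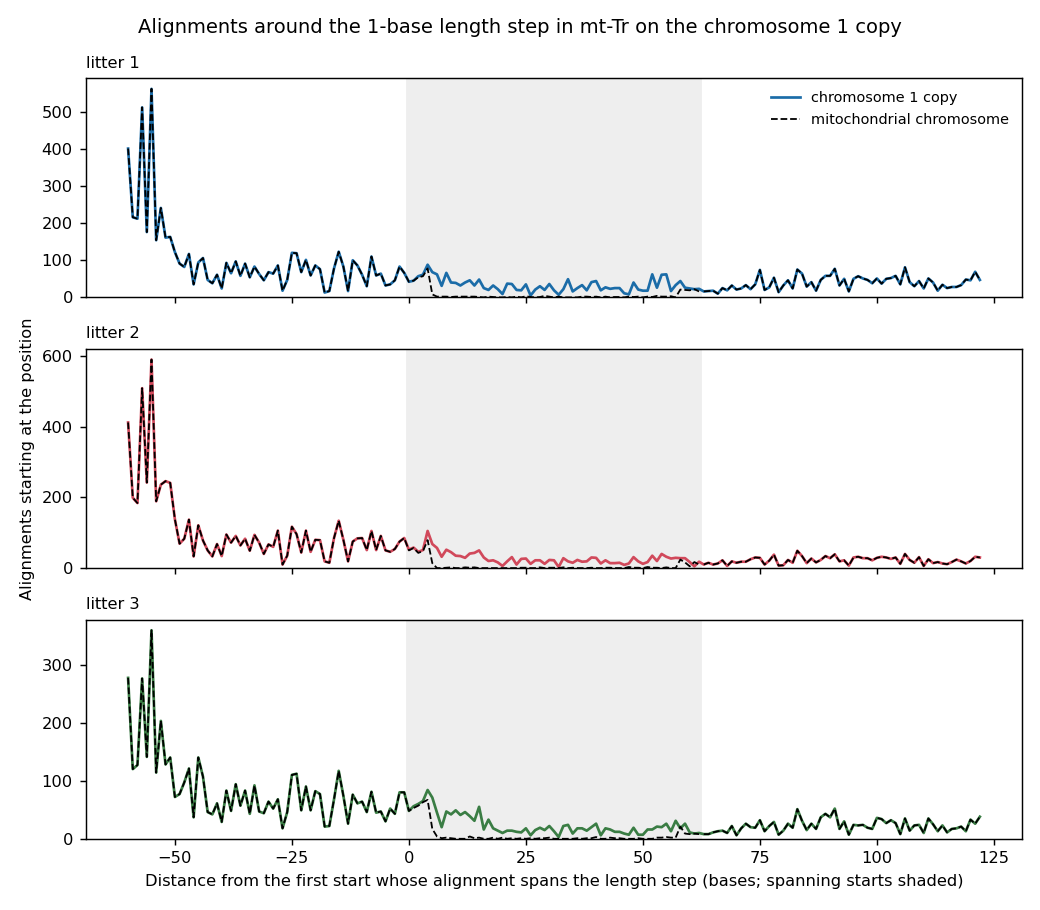
Alignments starting at each position (vertical axis) by distance from the first start that spans the length step in mt-Tr (horizontal axis, bases), 1 panel per litter, with the chromosome 1 copy as a coloured line and the matched mitochondrial start as a dashed line. The lines lie on each other outside the shaded starts, and inside them the nuclear copy held 2074, 1760 and 1533 alignments against 433, 385 and 400.

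On chromosome 2, alignments covered 3255 bases, chr2:22442802-22446056, again in reverse orientation. Of these, chr2:22443079-22445720 (2642 bases) matched mitochondrial bases 4775 to 7416 on 1 offset. That stretch holds all of mt-Co1, the transfer RNA genes mt-Tw, mt-Ta, mt-Tn, mt-Tc, mt-Ty, mt-Ts1 and mt-Td, 59.1% of mt-Co2 (subunit II of cytochrome c oxidase) and 17.1% of mt-Nd2 (a complex I subunit). The copy held 1246237, 770436 and 824716 alignments against 1368355, 840680 and 902920 on the mitochondrial chromosome. It thus lay lower by a like share in each litter, at 91.1%, 91.6% and 91.3% (91.4% ± 0.285, SD, n = 3).

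Position by position, 561 of 2101 starts (26.7%) had equal counts in every litter, 1505 were lower on the copy, 34 were at 0 in all litters and 1 was higher. Equal and unequal starts came in runs. The longest run of equal starts held 135 positions, with 6068, 1242 and 2413 alignments at both places. The longest run of unequal starts held 426 positions, matched to mitochondrial starts 6246 to 6671 in mt-Co1, and its copy stood at 89.5% ± 0.0894 (SD, n = 3). The next runs, of 213 and 139 positions, stood at 79.2% ± 0.790 and 84.3% ± 0.291. All 3 of these runs lie in mt-Co1.

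In the 3 unprocessed pseudogenes annotated there, counts were equal exactly where the bases were identical. Gm13340 is as long as mt-Co1 at 1545 bases and differs from it at 37 of them (97.6% identical), 33 of these being transitions and 31 at the third codon position. Under the vertebrate mitochondrial code, 33 of the changed codons keep their amino acid, 4 do not, and 0 become stops. Gm13341 differs from mt-Co2 at 16 aligned bases (97.6% identical) and lacks 12 bases. Gm13339 differs from its part of mt-Nd2 at 17 bases (96.7% identical). Among starts inside the 3 with at least 30 alignments, the 443 with identical bases were all equal and the 1999 with a difference were all unequal.

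The 12 bases that Gm13341 lacks are shown because starts on either side of them were compared at different offsets. Capitals in the first line mark the absent bases as the alignment placed them. The bases that begin the marked run also follow it, so a shifted run would fit as well. In the second line, capitals mark the bases that differ.
mt-Co2, bases 403 to 474: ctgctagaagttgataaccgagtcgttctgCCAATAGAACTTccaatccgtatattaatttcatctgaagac
Gm13341, bases 403 to 462: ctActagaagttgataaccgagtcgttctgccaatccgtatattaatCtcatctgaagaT

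By gene, the chromosome 2 copy held 90.7% ± 0.932 of the mt-Co2 alignments and 89.97% ± 0.0763 of the mt-Co1 alignments (SD, n = 3). For mt-Nd2 the share was 62.2% ± 0.488. In Gm13339, 78.4% of the starts had 3 differences or fewer, against 90.9% in Gm13341 and 94.98% in Gm13340. The latter pair ranked the other way round by mean share held, but their litters overlapped. In litters 1, 2 and 3 the shares were 89.91%, 91.75% and 90.55% in Gm13341 and 89.97%, 89.89% and 90.05% in Gm13340. Only 1 start in the annotated copies of chromosomes 2 and 4 was higher on the nuclear side. It lies in mt-Co2, with 269, 283 and 272 alignments at chr2:22443121 against 236, 266 and 242 at mitochondrial base 7303, and the 72 bases differ at 1.

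Some starts of chromosome 2 fell below the ladder. Over chromosomes 2 and 4, 38 of 2778 starts with 0 to 3 differences (1.37%) held under 50% of the mitochondrial alignments, all of them on chromosome 2. Of these, 28 lay within 46 neighbouring starts of mt-Co1 (5798 to 5843), all with 2 or 3 differences, where the copy held 3644, 2244 and 2492 alignments against 8311, 5690 and 5469. That is 43.8%, 39.4% and 45.6%. The other 10 lay at starts 4868 to 4880 of mt-Nd2 and at starts 5343 to 5349 and 6759 to 6768 of mt-Co1. This deficit was in all 3 litters.

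The copies on chromosomes 1 and 2 share 952 mitochondrial starts, from 6394 to 7345, which allows 1 mitochondrial position to be followed in 3 places. Of 901 starts with at least 30 alignments, all 901 were equal on chromosome 1, and 293 were equal at all 3 places. Over the shared starts, the mitochondrial chromosome held 608448, 385818 and 414056 alignments and chromosome 1 held as many. Chromosome 2 held 557411, 357870 and 380959, or 91.6%, 92.8% and 92.0%. Chromosome 1 was thus level with the mitochondrial chromosome, and chromosome 2 lay below both in every litter.

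**Figure D4:**
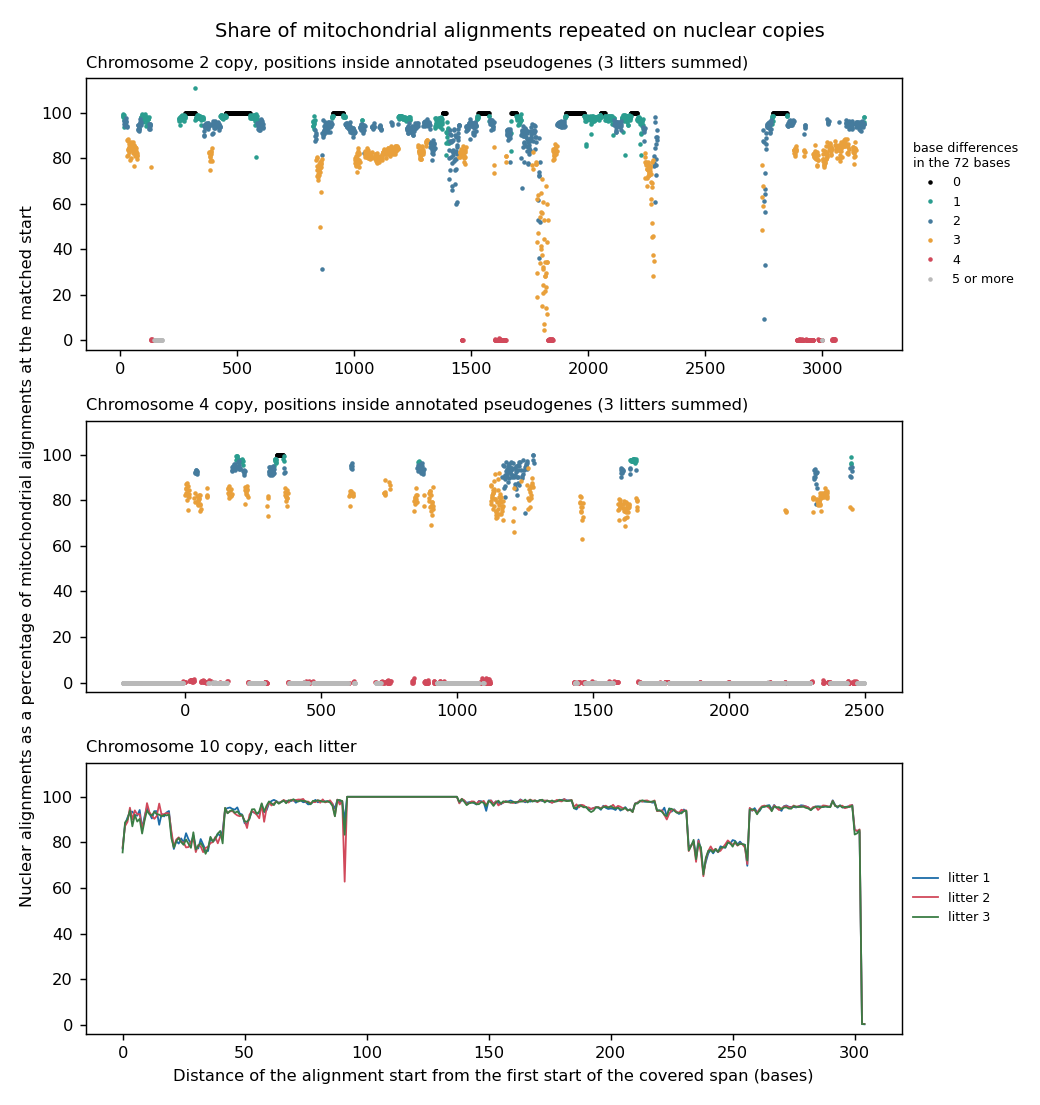
Nuclear alignments as a percentage of mitochondrial alignments at each matched start (vertical axis) by distance along the covered span (horizontal axis, bases, a scale for each panel), coloured by base differences for chromosomes 2 and 4 (litters summed) and by litter for chromosome 10. Starts with 0 differences lie at 100% and those with 4 or more near 0, and the 46 equal starts of chromosome 10 form a flat stretch at 100%.

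The chromosome 4 copy was the most altered of the annotated ones. Alignments covered chr4:79648466-79650990, 2525 bases, of which the last lie past the end of the window. They held 135152, 130325 and 103264 alignments at 840, 825 and 829 distinct starts of 2454, so that most starts inside the span were empty. The processed pseudogenes annotated there are Gm11407 for mt-Nd5 (92.5% identical, 79 differences), Gm11408 for mt-Nd6 (93.6%, 33 differences) and Gm11410 for mt-Cytb (92.9%, 81 differences). The genes encode 2 subunits of complex I and cytochrome b of complex III. Gm11408 and Gm11410 each carry 1 new stop codon under the mitochondrial code, and Gm11407 has 2 extra bases.

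Its 1 matched stretch was short. At chr4:79648802-79648896, in the same orientation as mitochondrial bases 13056 to 13150 of mt-Nd5, 24 of 24 starts (100%) were equal in every litter, with 9145, 10674 and 7261 alignments at both places. It is shown with its edges, since the equal starts end where the differences begin; capitals mark the 5 bases that differ.
mt-Nd5, mitochondrial bases 13044 to 13162: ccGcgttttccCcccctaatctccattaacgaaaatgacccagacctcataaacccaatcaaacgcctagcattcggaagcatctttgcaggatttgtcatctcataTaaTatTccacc
Gm11407, bases 556 to 674: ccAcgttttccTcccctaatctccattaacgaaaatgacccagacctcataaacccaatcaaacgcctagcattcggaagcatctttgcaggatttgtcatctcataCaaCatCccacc

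Over whole genes, the chromosome 4 copy held 22.0%, 23.4% and 23.2% of the mt-Nd5 alignments (22.9% ± 0.739, SD, n = 3). For mt-Nd6 it held 33.1%, 28.6% and 31.8% (31.1% ± 2.31). For mt-Cytb it held 7.02%, 7.05% and 6.74% (6.93% ± 0.167). In that order, 23.6%, 48.0% and 13.7% of the starts had 3 differences or fewer, so that the genes rank alike on both measures. Within a class of differences, the chromosome 4 and chromosome 2 copies lay close to each other, but their litters did not overlap from 1 to 3 differences. Pooled over genes, chromosome 4 was higher with 1 and 2 differences and lower with 3. Single genes did not keep this order. With 1 difference, Gm13341, Gm13340 and Gm13339 on chromosome 2 held 97.9%, 97.1% and 98.0%. Gm11407, Gm11408 and Gm11410 on chromosome 4 held 97.7%, 96.4% and 97.6%. With 3 differences these genes held 82.8%, 81.0% and 83.2% on chromosome 2, and 82.2%, 80.5% and 78.1% on chromosome 4. Pooled, the chromosome 4 and 2 copies held 97.6% ± 0.102 and 97.3% ± 0.0733 with 1 difference. With 3 differences they held 79.9% ± 0.256 and 81.6% ± 0.0644 (SD, n = 3).

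**Figure D5:**
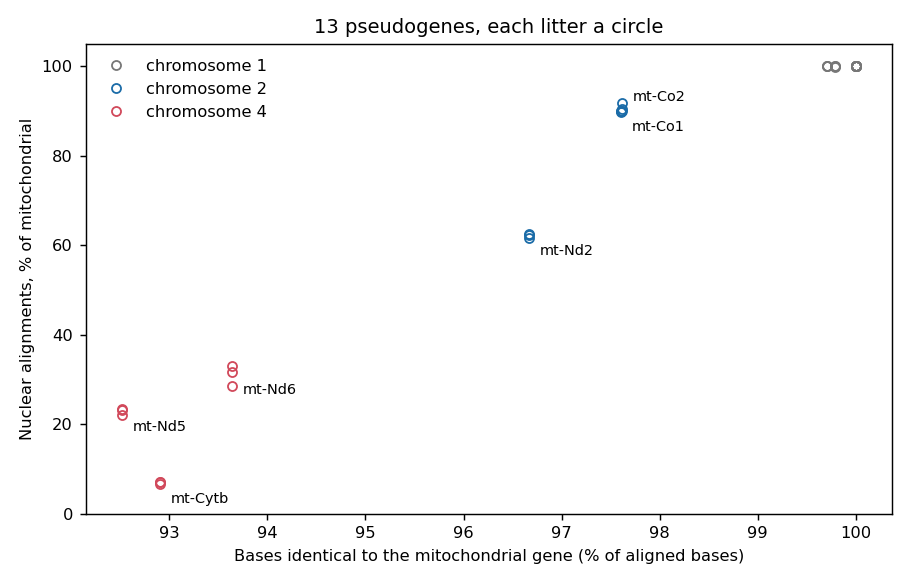
Nuclear alignments as a percentage of mitochondrial alignments over a whole gene (vertical axis) by the percentage of aligned bases identical to the mitochondrial gene (horizontal axis), with 1 circle for each of 13 pseudogenes in each litter. The chromosome 1 copies lie at or beside 100%, mt-Nd2 on chromosome 2 at 62.2%, and mt-Cytb on chromosome 4 at 6.93%.

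The chromosome 10 copy had the shortest covered span and the most alignments per kb of it. Whether the copy itself runs on past that span was not tested. The 376 covered bases, chr10:95540158-95540533, held 570010, 484037 and 652340 alignments at all 305 possible starts. Litter 3 was thus highest in unscaled counts, while litter 1 was highest per 1000000 nuclear alignments. The span matched mitochondrial bases 1507 to 1882 in reverse orientation, all inside mt-Rnr2, the large ribosomal RNA of the mitochondrion. Over the whole span the copy held 91.1%, 90.6% and 90.9% of the mitochondrial alignments (90.8% ± 0.209, SD, n = 3).

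Equal counts filled 1 unbroken run of 46 starts (100% of the starts in the matched stretch), with 53819, 36195 and 57134 alignments at both places. The matched stretch is this run, so that the 100% is fixed by how it was drawn. The run covers chr10:95540250-95540366, mitochondrial bases 1674 to 1790. Over the whole span 46 of 305 starts (15.1%) were equal and 259 were lower, with none higher and none at 0 in all litters. The matched bases of mt-Rnr2 are shown on the mitochondrial strand; capitals mark the 27 bases (1719 to 1745) that every one of the 46 alignments contains.
mt-Rnr2, mitochondrial bases 1674 to 1790: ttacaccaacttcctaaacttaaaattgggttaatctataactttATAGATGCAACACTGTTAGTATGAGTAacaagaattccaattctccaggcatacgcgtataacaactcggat

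Outward from that run the share was below 100% and changed in steps, down and up again. In pieces of 25 starts, the copy held 97.9% to 98.5% of the mitochondrial alignments next to the run on the lower mitochondrial side, the first of these pieces overlapping it. Farther out on that side it held 96.5%, 95.7%, 80.5% ± 0.0448, 89.4% ± 0.217 and 95.8% ± 0.105 (SD, n = 3). At the last 5 starts of the span the share dropped abruptly, from 83.4% to 85.7% over litters at the first 3 of them to 0.178% to 0.423% at the last 2. On the other side the pieces held 97.8%, 96.0%, 84.8% and 88.6%, the first of them also overlapping the run. The single start just beside the run on that side held 89.4%, 62.8% and 83.4% in litters 1, 2 and 3. The lowest full pieces, at 80.5% and 84.8%, were the lowest in all 3 litters. GENCODE M21 lists 1 transcript besides mt-Rnr2 that shares pieces of 24 bases with it, Gm20594 on chromosome 6, and 0 on chromosome 10, so base differences could not be counted for this copy.

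In 1000 bases on each side of the matched stretches, start positions held 8187 ± 2011 alignments per kb on chromosome 1, 76513 ± 20033 on chromosome 2, 29987 ± 4869 on chromosome 4 and 259878 ± 36873 on chromosome 10 (SD, n = 3), since the copies run on past the matched bases. Flanks were therefore also taken beside the covered span, a choice made after seeing the data. The span ends where no start within the next 1000 bases holds 30 alignments summed over litters, so low counts there are largely fixed by how it was drawn. In 1000 bases on each side of it, chromosome 1 held 16, 20 and 14 alignments, chromosome 2 held 3, 29 and 3, chromosome 4 held 63, 30 and 109, and chromosome 10 held 11, 10 and 11. Inside the spans, a kb of start positions held 411272 ± 73543 alignments on chromosome 1, 345525 ± 91066 on chromosome 2 and 50087 ± 7004 on chromosome 4 (SD, n = 3). Litter 2 stood apart around chromosome 2. Outside the covered span and up to 10 kb past the window, it held 871 alignments at 647 distinct starts, against 91 in litter 1 and 16 in litter 3, with at most 5 at 1 position.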

How the data were processed

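Per the submitters' processing notes, reads were aligned with Bowtie to mm9, whose version and settings were not given in the sources used here. Files as deposited hold unscaled coverage signal, the number of alignments over each base, with values from 1000000 written to 6 digits. From it, the number of 72-base alignments starting at each base was recovered by subtraction (Python 3.11.15, numpy 2.4.6). Depth was 34014013, 32431630 and 40474940 nuclear alignments in litters 1, 2 and 3.

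For each window, every offset to the mitochondrial chromosome in either orientation was scored by the starts with equal counts in all 3 litters and at least 30 mitochondrial alignments in sum; offsets with 20 or more were kept. A matched stretch runs from the first to the last equal start on a kept offset, so shares of equal starts within it are partly fixed by this. On simulated data, 100% of 30 copies were found. Most starts of each simulated copy were left unchanged, many more than the 20 needed. The simulation therefore does not measure how well strongly altered copies are found. A covered span joins starts that hold at least 30 alignments in sum and lie at most 1000 bases apart. Pseudogenes from GENCODE M21, built on GRCm38, were aligned to mitochondrial genes with Biopython 1.88 and paired to windows by chromosome, gene and count pattern, not by coordinates; no mm9 genome was used. The windows named, their 3 fullest bins, the genes in matched stretches and the 3 longest unequal runs follow 1 rule. Members and lists were chosen with earlier results of these data known. There is 1 group and the counts chose the members, so no test was made; values are mean ± SD over litters.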

Additional observations from a re-analysis of the deposited data

How the results depend on the processing

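No paired analysis was possible because the 3 litters form 1 group. The labels name no molecular identifiers. Depth limits positions of few alignments most, and positions under 30 alignments were left out of equal counts. The cause of each change below was not tested. As a share of all alignments, the bins held 7.36%; counted as distinct starts, they held 0.0809% of those in nuclear sequence. Distinct starts gave window levels of 157.1 and 284.6 (chromosome 1), 275.4 (chromosome 2), 62.1 (chromosome 4) and 30.2 (chromosome 10) for each 1000000, so that chromosome 10 became the lowest. For each 1000000 alignments outside the bins, chromosome 10 held 17784.

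On the second chromosome 1 stretch, a minimum of 10 alignments left 99.3% equal with 23 unequal, and a minimum of 100 left 100% with 0 unequal; without 1 litter, 99.84% to 99.9% were equal and 3 to 5 unequal. Its total ratio was 100% over positions with 30 alignments and 100.01% in distinct starts. On chromosome 2, 31.1% were equal at a minimum of 10, 24.6% at 100 and 45.98% within 5 percent, and distinct starts gave 95.2%. Within 5 percent, matched starts rose to 1026 on chromosome 2, 57 on chromosome 4 and 171 on chromosome 10.

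Flank levels depended on where the flank began. Beside the covered span, an alternative chosen after seeing the data, they were 8.33, 5.83, 33.7 and 5.33 alignments per kb on chromosomes 1, 2, 4 and 10. Beside the matched stretch, 500 bases gave 16374, 153026, 54246 and 519757, the rest of the window 1062, 20600.1, 6225 and 52216, and distinct starts 8.17, 242, 289.5 and 133.2. Of 90 values with 1 litter left out, 87 were marked as unchanged and 3 as moved. Leaving out 1 of 3 litters cannot move a mean by more than its SD, and some values are counts without an SD. This count is therefore no measure of how stable the results are.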
